A study of Mus musculus with 8 samples.

Results

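The genes of sterol and fatty acid synthesis were followed as 34 members of the 32397 genes on the array. The list holds 19 enzymes of sterol synthesis, 6 regulators and a carrier (Insig1, Insig2, Srebf1, Srebf2, Scap and the carrier Stard4) and 9 enzymes that make, lengthen or desaturate fatty acids. Members were chosen by gene name, and their probes were found through the RefSeq accession printed for each spot. All 34 had a probe, 47 probes in all.

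RNA came from mouse 3T3-L1 pre-adipocytes, a fibroblast-like line of embryonic origin that can be turned into fat cells, and from RAW 264.7 cells, a macrophage-like line. The lines shared medium across a transwell membrane for 48 h and were harvested apart. The study's methods describe a separate set-up for each line, with different cell numbers, and RNA taken from the line in the lower well. Each line had 1 array per condition: cortisol at 100 µM (C100), serotonin at 100 µM (S100), both hormones (CS100, 100 µM of each by the labels) and no treatment (NT). All cells, NT included, had been co-cultured, so no array shows a line grown alone. Cy5 marked the sample's RNA and Cy3 a reference shared by all arrays, and every value below is the log2 ratio of Cy5 to Cy3 or a difference of such ratios. There is no replicate of any condition. A level is given from the probes that are well above background on all 8 arrays, and a difference from NT from those above it on the arrays of that comparison, so that for genes with several probes (Srebf2, Ggps1) it need not equal the difference of the levels.

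Cholesterol and the other sterols are built from acetyl-CoA by way of mevalonate, isoprenoid pyrophosphates, squalene and lanosterol, and fatty acids are built from the same acetyl-CoA by way of malonyl-CoA. The genes of both routes are known targets of the SREBP transcription factors, which Srebf1 and Srebf2 encode. The protein made from Scap escorts the SREBP precursors out of the endoplasmic reticulum when sterols are scarce, and the proteins made from Insig1 and Insig2 hold them back when sterols are plentiful. Pre-adipocytes need these routes for membrane and stored lipid, and macrophages adjust them with the lipid they take up.

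Promoter sequences of the RefSeq table (GRCm38.p6) were found for 27 members, and the 250 bases before the first listed start site of each gene were searched on both strands. For the 5 members with several listed start sites (Pmvk, Dhcr7, Insig2, Srebf1 and Scap) the others were not searched. The CCAAT box (letters CCAAT), which the factor NF-Y binds beside SREBPs at many sterol genes, was in 20 of the 27 promoters (74.1%) and in 34.5% of the promoters of 27025 genes. The GC box (letters GGGCGG), a site for Sp1, was in 19 of the 27 (70.4%) and in 32.9% of all. The sterol regulatory element in its full form (letters TCACNCCAC) was in 1 of the 27, that of Hmgcs1, and in 1.04% of all, and its core (letters CACNCCAC, contained in the full form) was in those of Acat2, Hmgcs1, Insig1 and Tecr and in 5.16% of all. Of the printed promoters, Mvd and Idi1 are shown because they were furthest below RAW 264.7 cells in 3T3-L1 cells, Fasn because it was higher there, Msmo1 for the largest difference from NT and Hmgcs1 for the full element. Capitals mark CCAAT boxes, GC boxes and that element on either strand. The stretches are Mvd at chr8:122443423-122443672 (minus strand), Idi1 at chr13:8885356-8885605 (plus strand), Msmo1 at chr8:64733579-64733828 (minus strand), Fasn at chr11:120824548-120824797 (minus strand) and Hmgcs1 at chr13:119690101-119690350 (plus strand).
Mvd: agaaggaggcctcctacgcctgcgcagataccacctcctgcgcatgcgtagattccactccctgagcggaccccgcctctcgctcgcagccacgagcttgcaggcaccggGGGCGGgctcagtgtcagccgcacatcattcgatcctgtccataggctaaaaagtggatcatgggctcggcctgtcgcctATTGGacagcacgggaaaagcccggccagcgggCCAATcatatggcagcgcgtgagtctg
Idi1: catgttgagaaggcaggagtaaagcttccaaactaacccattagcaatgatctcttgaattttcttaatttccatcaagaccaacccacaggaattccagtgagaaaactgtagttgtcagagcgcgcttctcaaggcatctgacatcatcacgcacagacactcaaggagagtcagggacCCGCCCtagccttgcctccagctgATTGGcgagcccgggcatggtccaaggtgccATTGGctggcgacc
Msmo1: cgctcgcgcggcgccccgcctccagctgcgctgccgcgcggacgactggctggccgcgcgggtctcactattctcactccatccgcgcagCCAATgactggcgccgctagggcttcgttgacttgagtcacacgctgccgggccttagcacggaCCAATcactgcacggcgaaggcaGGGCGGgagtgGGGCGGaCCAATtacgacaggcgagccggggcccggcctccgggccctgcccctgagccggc
Fasn: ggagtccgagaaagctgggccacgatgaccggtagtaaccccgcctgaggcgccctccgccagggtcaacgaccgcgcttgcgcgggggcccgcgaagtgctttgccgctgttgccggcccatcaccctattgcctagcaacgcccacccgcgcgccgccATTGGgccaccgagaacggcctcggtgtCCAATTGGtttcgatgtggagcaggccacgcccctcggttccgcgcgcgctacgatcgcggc
Hmgcs1: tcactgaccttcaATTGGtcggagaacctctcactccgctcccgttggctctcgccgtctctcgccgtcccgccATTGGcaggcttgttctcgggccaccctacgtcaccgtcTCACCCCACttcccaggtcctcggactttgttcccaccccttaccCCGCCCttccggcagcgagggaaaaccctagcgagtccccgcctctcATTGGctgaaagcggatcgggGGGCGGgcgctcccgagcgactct

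Mvd and Idi1 each held 2 CCAAT boxes and 1 GC box, while Fasn held 3 CCAAT boxes, a pair of them overlapping on opposite strands, and no GC box. Msmo1 and Hmgcs1 each held 3 CCAAT boxes and 2 GC boxes. A match of letters is a description of the sequence, and no binding was measured. Motif content was not tested against the direction of the difference between the lines.

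**Figure D1:**
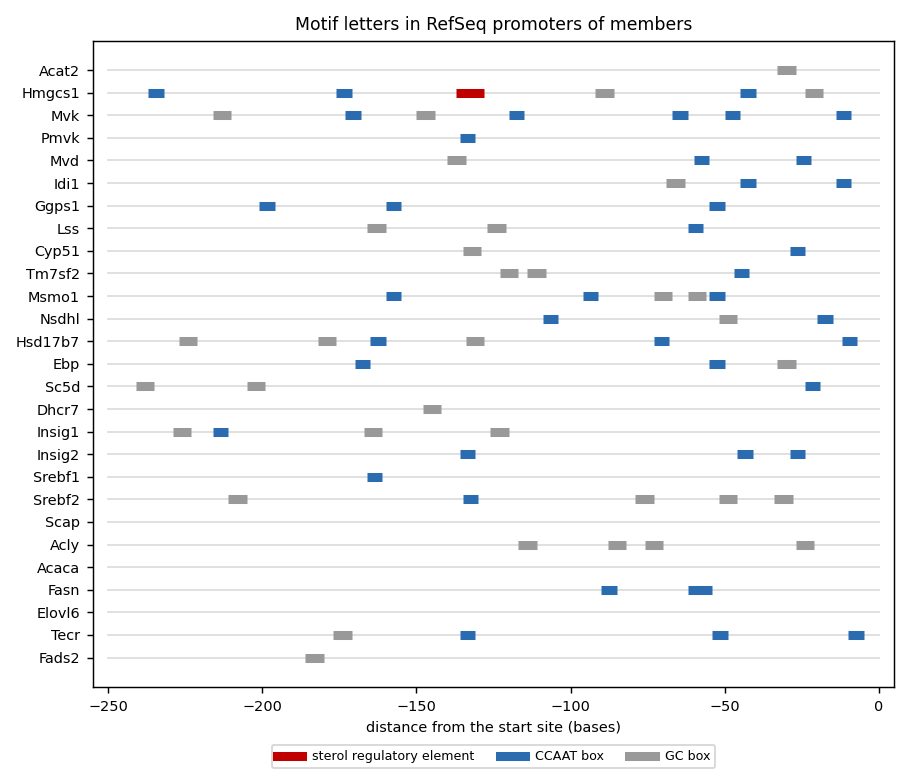
Positions of motif letters in the 250 bases before the first listed start site of the 27 members with a RefSeq promoter, 1 gene per row in pathway order, with the distance from that site in bases on the horizontal axis. CCAAT boxes (blue) are in 20 rows and GC boxes (grey) in 19, and the full sterol regulatory element (red) is in the row of Hmgcs1.

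The arrays limit what follows in ways that touch every value. All arrays of a line sat on 1 slide, and a given treatment always took the same place on its slide, so slide cannot be told apart from line, nor place from treatment. By the study's methods the co-culture set-up also goes with the line and cannot be told apart from it. Macrophage markers summed to 5116 to 7217 net Cy5 units on the 3T3-L1 arrays and to 100210 to 151710 on the RAW 264.7 arrays over 9 genes, with 8 of the 9 above background on every 3T3-L1 array and Adgre1 the exception. Pre-adipocyte and fibroblast markers summed to 139440 to 170090 units on the 3T3-L1 arrays and to 831 to 1833 on the RAW 264.7 arrays over 8 genes, with Pdgfra and Postn not above background on any RAW 264.7 array. Targets of the glucocorticoid receptor did not follow the cortisol label. Fkbp5 in 3T3-L1 cells differed from NT by 0.14 on the array labelled C100, by 1.32 on that labelled S100 and by 1.45 on that labelled CS100. Zbtb16 in these cells differed by -0.19, 1.94 and 1.96, and Tsc22d3 in RAW 264.7 cells by -0.29, 0.62 and 0.52 (log2, same order of labels). C100, S100 and CS100 below mean the arrays so labelled, and whatever is said of either hormone depends on those labels.

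Of the 34 members, 32 gave a ratio on all 8 arrays. Acat2, the thiolase at the head of the mevalonate route, was dim, with Cy5 signals of 63 to 114 units, and fell short of background in a channel on 2 arrays. Sqle, squalene epoxidase, lost 1 array to a spot that the scanner marked as an outlier (RAW 264.7, CS100).

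Between the cell lines, sterol and fatty acid genes differed in both directions. The steps that turn mevalonate into farnesyl pyrophosphate (Mvd, Idi1, Fdps), lanosterol demethylase (Cyp51), Scap and the fatty acid elongase Elovl6 were lower in 3T3-L1 cells, by 2.33-fold to 4.69-fold. The desaturase Scd1 was 4.39-fold higher in 3T3-L1 cells, and Insig2, Ggps1 and Fasn were 1.72-fold to 1.91-fold higher. With limma over the 4 arrays of each line and treatment as a block, 15 of 32 members were lower in 3T3-L1 cells and 8 were higher at an adjusted p under 0.05, where 35.9% of all 10995 genes were lower and 38.5% higher. The members' share was 46.9% lower and 25% higher, and their median difference was -0.22 against 0.04 for all genes. The members were thus not set apart by the number that differed, since most genes differ between these lines. On 14 members the 4 arrays of 3T3-L1 cells lay wholly below those of RAW 264.7 cells, and on 6 wholly above (34.3% and 35.9% of all genes).

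Mvd, the decarboxylase that makes isopentenyl pyrophosphate, had log2 ratios of -1.27, -1.90, -1.75 and -1.57 on the 3T3-L1 arrays (C100, S100, CS100, NT) and of 0.78, 0.35, 0.60 and 0.68 on the RAW 264.7 arrays. Every 3T3-L1 value lay far below every RAW 264.7 value, and the difference was -2.23 (95% interval -2.47 to -1.99, limma adjusted p = 1.8e-08), a 4.69-fold lower level. Idi1, which isomerises that product, had -1.21, -1.04, -1.15 and -1.94 on the 3T3-L1 arrays and 0.59, 0.37, 0.55 and 0.58 on the RAW 264.7 arrays. The groups did not overlap, the NT array of 3T3-L1 cells was the lowest, and the difference was -1.86 (-2.22 to -1.50, limma adjusted p = 2.1e-06). Fdps, farnesyl pyrophosphate synthase, gave -0.59, -1.0, -0.99 and -1.12 on the 3T3-L1 arrays and 1.00, 0.41, 0.66 and 0.71 on the RAW 264.7 arrays. This difference of -1.62 (-1.86 to -1.37, limma adjusted p = 3.0e-07) made 3 consecutive enzymes of the isoprenoid segment more than 3-fold lower in 3T3-L1 cells.

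The step before this segment and its side branch looked different. Mvk and Pmvk, the kinases that phosphorylate mevalonate ahead of Mvd, were lower in 3T3-L1 cells by smaller amounts (log2 differences of -0.65 and -0.35), and Hmgcs1, which makes the substrate of the rate-limiting reductase, differed by 0.10 (95% interval -0.14 to 0.34). Ggps1 draws farnesyl pyrophosphate away into geranylgeranyl pyrophosphate. Its ratios were 0.97, 0.75, 0.81 and 1.04 on the 3T3-L1 arrays (C100, S100, CS100, NT) and -0.07, -0.10, 0.15 and -0.10 on the RAW 264.7 arrays, which did not overlap and differed by 0.92 (0.67 to 1.18, limma adjusted p = 3.6e-05). That value rests on 1 probe. A dimmer second Ggps1 probe, above background on 7 of the 8 arrays, gave -0.14, and without the S100 array of RAW 264.7 cells, where both probes count, the difference was 0.38.

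In the sterol segment, Cyp51, which removes a methyl group from lanosterol, had ratios of -0.71, -0.82, -0.70 and -0.73 on the 3T3-L1 arrays and of 0.78, 0.28, 0.81 and 0.66 on the RAW 264.7 arrays. The 3T3-L1 arrays lay within 0.12 of each other and far below the others, with a difference of -1.37 (95% interval -1.62 to -1.12, limma adjusted p = 1.4e-06). Its 1 probe was dim, at 80.5 to 299 Cy5 units. The scanner software's ratios on the 3T3-L1 arrays were further apart (-1.02, -1.05, -1.29 and -1.60). Over the alternative settings the line difference of Cyp51 ran from -2.48 to -1.37, so its closeness and size depend on the processing. Msmo1, the methylsterol monooxygenase that acts soon after Cyp51, gave -1.47, -1.11, -0.92 and -1.94 on the 3T3-L1 arrays and -0.42, -0.62, -0.57 and -0.71 on the RAW 264.7 arrays. Its groups did not overlap either, but the 3T3-L1 values spread over 1.02 log2 units, with NT lowest, and the difference was -0.78 (-1.12 to -0.44, limma adjusted p = 0.00094). Nsdhl (-0.37) and the sterol isomerase Ebp (-0.32) were also lower. The last steps were higher in 3T3-L1 cells, with differences of 0.51 for Sc5d, a sterol desaturase, and 0.49 for Dhcr7, the reductase that ends one route to cholesterol, and lanosterol synthase (Lss) was higher by 0.26. The direction for Dhcr7 and Lss turned when the Cy5 channel was used without the reference (-0.20 and -0.048). For Fdft1 (squalene synthase), Tm7sf2 (a sterol reductase) and Hsd17b7 (a keto reductase of the same segment) the test found no difference, with 95% intervals within 0.31 of 0.

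The regulators differed in both directions. Insig2 had ratios of 0.32, 0.64, 0.81 and 0.66 on the 3T3-L1 arrays (C100, S100, CS100, NT) and of -0.08, -0.31, -0.69 and -0.23 on the RAW 264.7 arrays. All 3T3-L1 values were above all RAW 264.7 values, and the difference was 0.93 (95% interval 0.58 to 1.29, limma adjusted p = 0.00032). Insig1, its paralogue and itself an SREBP target, was higher by 0.41 (0.14 to 0.67, limma adjusted p = 0.0099). Scap, the escort of the SREBP precursors, had -0.87, -0.92, -0.86 and -1.01 on the 3T3-L1 arrays and 0.19, 0.41, 0.54 and 0.09 on the RAW 264.7 arrays, with a difference of -1.22 (-1.47 to -0.98, limma adjusted p = 2.7e-06). Srebf1 was lower as well, at -0.12, -0.32, -0.39 and -0.12 on the 3T3-L1 arrays and 0.59, 0.42, 0.64 and 0.45 on the RAW 264.7 arrays (difference -0.76, -1.01 to -0.51, limma adjusted p = 0.00013). The calls for Scap and Srebf1 held under all 7 alternatives, that for Insig2 was lost with median centring (0.72), and that for Insig1 with median centring (0.32), the scanner software's ratio (0.44) and Cy5 alone (0.095). Srebf2 differed by 0.07 (-0.25 to 0.39). Transcript forms of Srebf1 were not told apart.

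Stard4, a soluble protein that carries sterol between membranes, had ratios of -0.22, -0.42, -0.24 and -0.68 on the 3T3-L1 arrays and of 0.59, 0.42, 0.67 and 0.62 on the RAW 264.7 arrays. It was lower in 3T3-L1 cells by 0.97 on the log2 scale (95% interval of the difference -1.23 to -0.70, limma adjusted p = 2.9e-05). Its pair of probes gave differences of -0.68 and -1.25, both in the same direction.

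Fatty acid genes also differed in both directions. Scd1, which puts the first double bond into stearoyl- and palmitoyl-CoA, had ratios of 1.11, 1.03, 1.29 and 0.86 on the 3T3-L1 arrays (C100, S100, CS100, NT) and of -0.56, -1.34, -1.45 and -0.90 on the RAW 264.7 arrays. The groups did not overlap, every 3T3-L1 value being above 0 and every RAW 264.7 value below it, and they differed by 2.14 (95% interval 1.75 to 2.52, limma adjusted p = 1.0e-06). Scd2, a close relative with the same activity, had 0.45, 0.40, 0.68 and 1.06 on the 3T3-L1 arrays and 1.16, 0.96, 0.93 and 0.89 on the RAW 264.7 arrays, overlapped, and missed the threshold (-0.33, -0.66 to -0.01, limma adjusted p = 0.059). Fasn, fatty acid synthase, had 1.17, 1.47, 1.43 and 0.91 on the 3T3-L1 arrays and 0.30, 0.34, 0.58 and 0.63 on the RAW 264.7 arrays, without overlap (difference 0.78, 0.47 to 1.1, limma adjusted p = 0.00049). Acaca, the carboxylase that supplies Fasn with malonyl-CoA, was instead lower in 3T3-L1 cells (-0.50, limma adjusted p = 0.0024).

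Elovl6, which lengthens the product of Fasn, had -1.05, -1.07, -1.02 and -1.55 on the 3T3-L1 arrays and 0.01, -0.13, 0.14 and 0.16 on the RAW 264.7 arrays. Every 3T3-L1 value was below every RAW 264.7 value, with a difference of -1.22 (95% interval -1.52 to -0.91, limma adjusted p = 1.5e-05). Fads2, the desaturase at the entry to polyunsaturated fatty acids, was lower by 0.65 on the log2 scale (limma adjusted p = 0.00036), and its partner Fads1 differed by -0.01 (-0.31 to 0.30). Acly, which makes cytosolic acetyl-CoA from citrate, and Tecr, which completes each round of elongation, did not pass (differences of -0.11 and 0.21). Within 1 short route the lines thus ran in opposite directions from gene to gene: carboxylase lower, synthase higher, elongase lower, Scd1 higher. Each direction held under all 7 alternatives, and so did the call for Scd1. The call for Acaca was lost with no filter on dim probes, that for Elovl6 with Cy5 alone, and that for Fasn with median centring and with Cy5 alone.

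**Figure D2:**
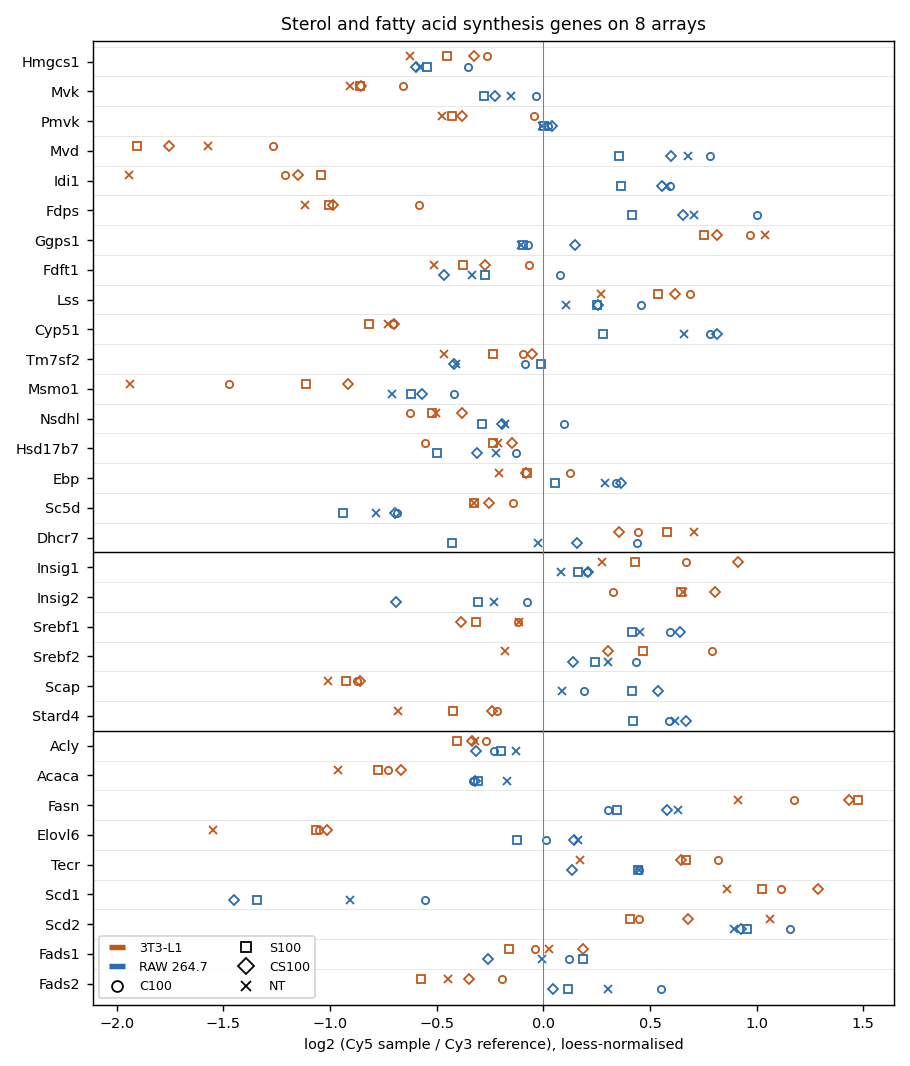
Log2 ratio of Cy5 sample to Cy3 reference for the 32 members measured on all 8 arrays, 1 gene per row, with 3T3-L1 in orange above RAW 264.7 in blue and a symbol for each condition (1 array each). Ratios are to the reference and are not comparable between rows. Mvd, Idi1, Fdps and Cyp51 have 3T3-L1 arrays far to the left of RAW 264.7 arrays, and Scd1 the reverse.

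**Figure D3:**
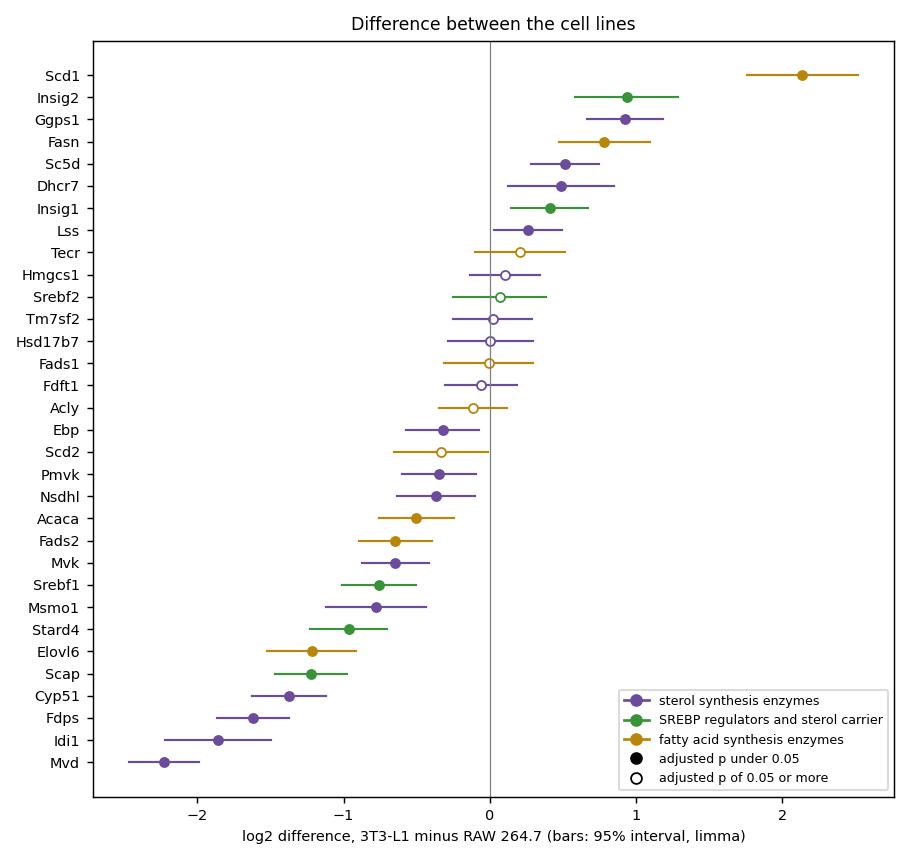
Log2 difference of 3T3-L1 minus RAW 264.7 for the same 32 members, sorted, with 95% intervals from limma and filled points for an adjusted p under 0.05. It runs from -2.23 for Mvd to 2.14 for Scd1, with 15 filled points below 0 and 8 above, and the points of Lss and Dhcr7 change side when the Cy5 channel is used alone.

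The calls on small differences depended most on single arrays. Leaving out each array in turn, Lss passed in 1 of 8 fits, Pmvk in 2, Ebp and Dhcr7 in 4, and Nsdhl and Insig1 in 6, and the other 17 members that passed did so in all 8. In those fits 6 to 8 members were higher (18.8% to 25% of members, against 34.3% to 37.5% of all genes). Lower were 13 or 14 (39.4% to 43.8%, against 33.5% to 34.3% of all genes). When arrays were centred on their median in place of loess, 1 member was higher (Scd1) and 11 were lower, 3.12% and 34.4% of members against 17.7% and 27.4% of all genes.

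The comparison with NT asked what each hormone and the pair did to the same genes within a line. In 3T3-L1 cells Msmo1, Idi1 and Srebf2 had the largest differences above NT, and Scd2 the largest below it. Only Msmo1 reached 2-fold, on the CS100 array. In RAW 264.7 cells no member reached 1.5-fold against NT. None of this has a replicate. For each ratio the scanner software gives an error, which covers the spot and not the culture. The errors of both arrays of a comparison were combined, as the root of their summed squares, into an error of the difference. "Beyond the error" and "scanner error" below refer to that combined error. It comes from the software's own ratios and not from the loess-normalised ones.

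Msmo1 was above NT by 0.47 on C100, 0.83 on S100 and 1.02 on CS100 in 3T3-L1 cells, and by 0.29, 0.09 and 0.14 in RAW 264.7 cells, in the same order of labels. The CS100 difference was the 1 call among 33 measured members at 2-fold, where 0.784% of all 13400 genes were as much higher and 0.642% as much lower. Idi1, which had stood lowest on the NT array, was above NT by 0.73, 0.90 and 0.79 on C100, S100 and CS100 in 3T3-L1 cells, and by 0.01, -0.21 and -0.03 in RAW 264.7 cells. Srebf2 was above NT by 0.80, 0.62 and 0.43 in 3T3-L1 cells, largest on C100, and by 0.17, -0.07 and -0.16 in RAW 264.7 cells. Each 3T3-L1 difference of these 3 genes exceeded its scanner error, and the 3 treated arrays share a single NT array, on which Idi1, Msmo1 and Srebf2 each had their lowest 3T3-L1 ratio.

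At 2-fold, 0 of 34 members were higher or lower on C100 of 3T3-L1 cells, where 0.423% of 13718 genes were higher and 1.22% lower, and 0 of 34 on S100, where 0.522% of 13590 genes were higher and 0.714% lower. At 1.5-fold, 3 of 34 were higher on C100 (Idi1, Srebf2 and Tecr, against 4.13% of all genes) and 1 was lower (Scd2, against 6.98%). On S100, 3 were higher (Idi1, Msmo1 and Srebf2, against 3.65%) and 1 was lower (Scd2, against 4.68%). On CS100, 3 of 33 were higher (Msmo1, Idi1 and Insig1, against 3.83%) and 0 lower (against 3.9%). These counts carry no test, and the limma fit of hormone effects is given further on.

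Smaller differences ran upward more often than for all genes on C100 and CS100 of 3T3-L1 cells, and not on S100. On C100, 25 of 34 members were above NT, with a median of 0.25 against 0.01 for all genes, of which 51.2% were above. Sterol enzymes had a median of 0.31 there, 14 of 19 being above NT, and 9 of them beyond the error (Hmgcs1, Pmvk, Idi1, Fdps, Fdft1, Lss, Tm7sf2, Msmo1 and Ebp, by 0.33 to 0.73). Sqle (-0.50) and Hsd17b7 (-0.34) were below NT beyond the error, and of all genes 19.2% were higher and 20% lower beyond it. On S100 the members' median was 0.07, with 18 of 34 above NT against 51.1% of all genes, and sterol enzymes had a median of -0.0010. On CS100 it was 0.15, with 26 of 33 above NT against 53.3% of all genes. Macrophage markers moved on the same arrays, 6 of 8 being below NT on C100 (median -0.12), 8 of 8 on S100 (-0.50) and 7 of 8 on CS100 (-0.37), and their part in the members' values was not tested. Over the 32 members measured throughout, 19 were above NT on all 3 treated arrays and 4 below (30.2% and 28.5% of all genes), again against the same NT array.

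Insig1, whose product retains SREBP precursors, was above NT by 0.39 on C100, 0.15 on S100 and 0.64 on CS100 of 3T3-L1 cells. Stard4 was above NT on each (0.47, 0.26 and 0.44), though of its probes only the brighter was clearly so, by 0.69, 0.66 and 0.75, the other giving 0.24, -0.14 and 0.13. Insig2 was below NT on C100 by 0.33 and within the error on the others (-0.01 and 0.15), a direction that turned with the Cy5 channel alone or median centring.

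Among fatty acid genes of 3T3-L1 cells, Elovl6 was above NT by 0.50 on C100, 0.48 on S100 and 0.53 on CS100. Tecr, which works with the elongases, was above by 0.65, 0.50 and 0.47. Fasn was above by 0.26, 0.56 and 0.52, beyond the error on S100 and CS100. Of all genes, 16.2% were higher and 15.2% lower beyond the error on S100, and 16.1% and 12.9% on CS100. Acaca (0.24, 0.19 and 0.30) and Scd1 (0.25, 0.16 and 0.43) were also above NT on all 3 arrays, of which only Scd1 on CS100 was beyond the error. Scd2 ran the other way, below NT by 0.61 on C100, 0.66 on S100 and 0.38 on CS100, so that the sister desaturases differed in direction. Sqle, squalene epoxidase, was below NT by 0.50, 0.48 and 0.37. Fdft1 and Lss, the enzymes on either side of it, were above NT beyond the error on C100 (0.44 and 0.41) and Lss also on CS100 (0.35). Both were within the error on S100 (0.13 and 0.27) and turned there with Cy5 alone.

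In RAW 264.7 cells the C100 array stood out for direction and not for size. All 19 sterol enzymes were above NT on it, by 0.01 to 0.46, where 56.2% of all genes were above NT. The smallest of these differences turned under other settings (Mvk, Pmvk, Idi1, Ggps1, Sqle and Ebp with median centring, Idi1 and Ggps1 with Cy5 alone, Pmvk with its brightest probe). In all, 28 of 34 members were above NT there (median 0.12 against 0.02), as were 6 of 8 pre-adipocyte and fibroblast markers (median 0.21), whose part was not tested. Among the sterol enzymes Fdft1 (0.41), Lss (0.35), Tm7sf2 (0.32) and Dhcr7 (0.46) exceeded the scanner error, as did Scd1 (0.35) among the other members. No member was below NT beyond it, and of all genes 3.32% were higher and 2.89% lower. Fatty acid enzymes on the same array were split, 4 above and 5 below, from -0.33 for Fasn to 0.35 for Scd1. No member reached 2-fold on any RAW 264.7 array, where 0.0377% of all genes were as much higher and 0.0453% as much lower on C100, 0.638% and 0.276% on S100, and 0.18% and 0.0749% on CS100. At 1.5-fold 0 of 34 were called higher or lower on C100 (0.324% and 0.46% of all genes), 0 of 33 on S100 (2.09% and 2.03%) and 0 of 33 on CS100 (1.18% and 0.988%).

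On S100 of RAW 264.7 cells 22 of 33 members were below NT, where 58.7% of all genes were, with a median of -0.08 against -0.04. Beyond the error, Scd1 (-0.44), Dhcr7 (-0.41), Cyp51 (-0.38), Mvd (-0.33) and Hsd17b7 (-0.28) were below NT and Tm7sf2 (0.40) and Scap (0.32) above. Of all genes, 9.84% were lower and 5.37% higher beyond it. The directions of most of these members were not stable. With the Cy5 channel alone, the members' median on S100 was 0.28, and Dhcr7, Cyp51, Mvd and Hsd17b7 were above NT. Scap turned with median centring, while Scd1 and Tm7sf2 kept their direction under every setting. Scd1 was below NT by 0.44 on S100 and by 0.55 on CS100 but above it by 0.35 on C100. Pre-adipocyte and fibroblast markers were above NT for 6 of 7 on S100 (median 0.63) and for 4 of 5 on CS100 (median 0.35), and their part was not tested. On CS100, 14 of 33 members were above NT (median -0.02 against -0.01 for all genes) and 8 of 9 fatty acid enzymes were below, by up to 0.55. The differences beyond the error on CS100 were those of Scap (0.45) and Ggps1 (0.32) above NT and of Insig2 (-0.46), Tecr (-0.31) and Scd1 (-0.55) below. That was 2 higher and 3 lower of 33 members, where 6.68% of all genes were higher and 8.24% lower beyond it. Scap (-0.69), Ggps1 (-0.25) and Insig2 (0.094) turned with the Cy5 channel alone.

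**Figure D4:**
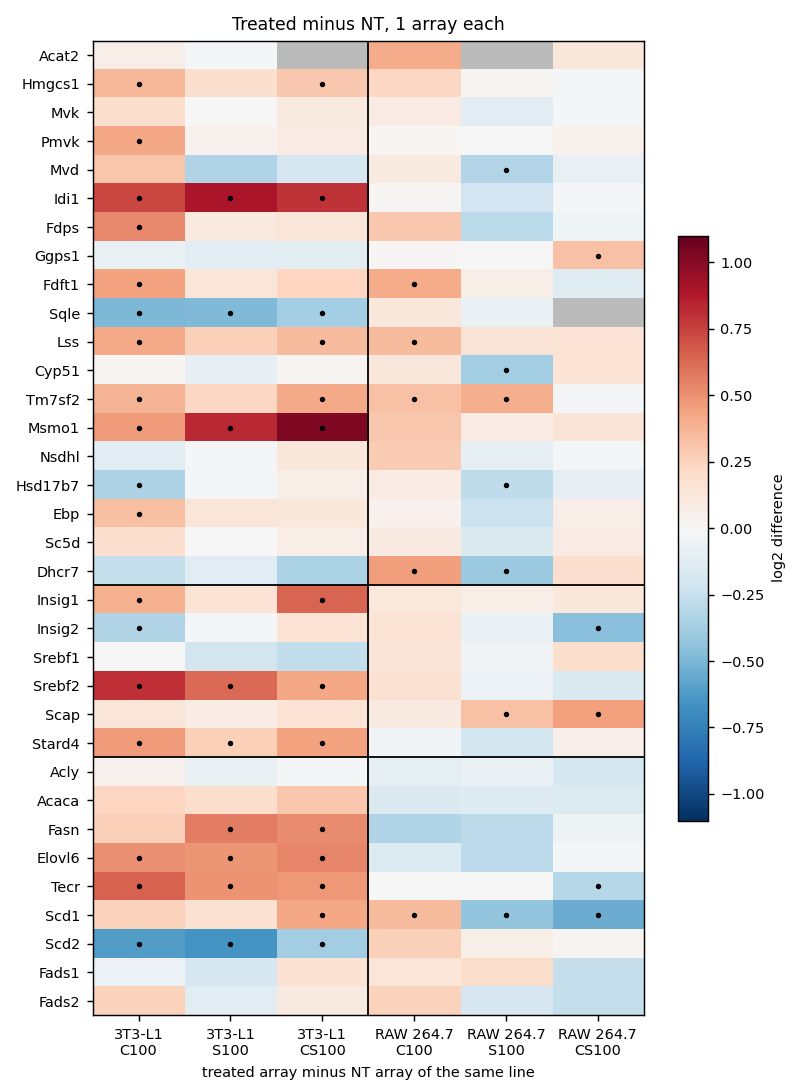
Log2 difference of each treated array from the NT array of its line for the 34 members, in pathway order, with a dot where the difference exceeds the scanner error and grey where it was not measured. Red cells for Idi1, Msmo1 and Srebf2 run across the 3 columns of 3T3-L1 cells and blue ones for Sqle and Scd2, which turn with median centring, while no RAW 264.7 cell goes beyond 0.55.

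Acly, Acaca, Fasn, Elovl6 and Tecr were below NT on all 3 RAW 264.7 arrays, 5 of 9 fatty acid enzymes where 20.3% of all genes were, and Acaca, Fasn, Elovl6, Tecr and Scd1 were above NT on all 3 3T3-L1 arrays, 5 of 9 against 30.2%. Scd2 ran the other way, above NT on all 3 RAW 264.7 arrays and below it on all 3 3T3-L1 arrays. Of these differences in RAW 264.7 cells, which were between 0.00 and 0.33 in size, that of Tecr on CS100 (-0.31) exceeded the scanner error and the others did not. With the Cy5 channel alone Acly, Acaca, Fasn and Tecr were above NT on S100, as was Tecr on C100. On CS100 of RAW 264.7 cells Acly, Acaca and Elovl6 turned with Cy5 alone, and Fasn with the scanner software's ratio. Scd2 in RAW 264.7 cells turned with median centring on S100 and CS100, and with Cy5 alone on CS100. Between lines the differences were not tested gene by gene, other than by the interaction below.

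**Figure D5:**
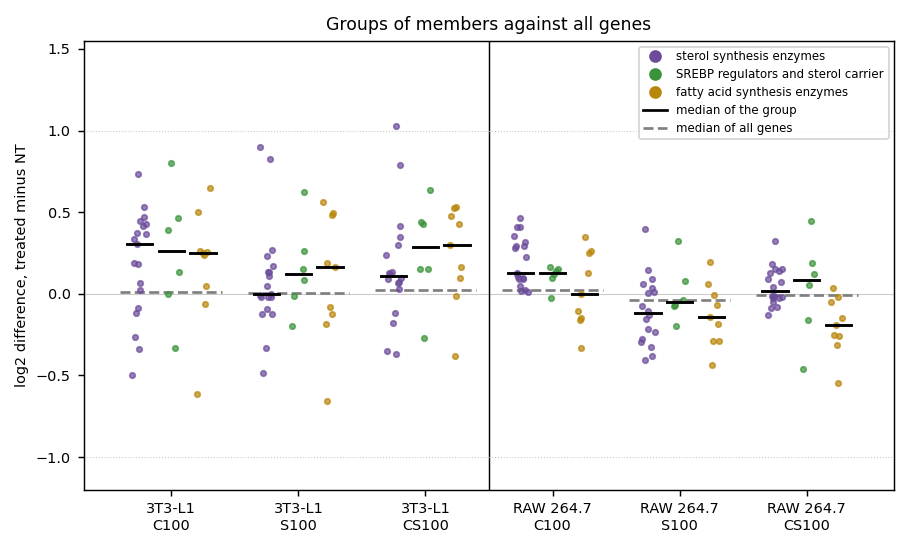
Log2 difference from NT for every measured member, by group (sterol enzymes purple, regulators and carrier green, fatty acid enzymes ochre), with the group's median in black and the median of all genes as a dashed line. Fatty acid enzymes have medians of 0.25, 0.16 and 0.30 on C100, S100 and CS100 of 3T3-L1 cells and of -0.0016, -0.14 and -0.19 on those of RAW 264.7 cells.

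Few members differed between both hormones and 1 alone. None reached 2-fold in 3T3-L1 cells, where 0.0225% of genes were as much higher and 0.0749% as much lower on CS100 than on S100, and 1.35% and 0.523% than on C100, nor in RAW 264.7 cells, where it was 0.517% and 0.533% against S100 and 0.202% and 0.0544% against C100. Between CS100 and S100 of 3T3-L1 cells, 0 of 33 members differed by 1.5-fold (0.457% of genes were higher and 0.247% lower), and the largest difference was 0.48, in Insig1. Between CS100 and C100 of that line it was again 0 of 33 (7% and 3.1%), from -0.49 for Mvd to 0.56 for Msmo1. In RAW 264.7 cells, CS100 stood below C100 by 1.5-fold for Scd1 (-0.90) and Insig2 (-0.61), 2 of 33 where 1.24% of genes were as much lower and 1.14% as much higher, and above S100 for Dhcr7 (0.59), 1 of 32 where 3.49% were as much higher and 2.24% as much lower.

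A limma model in which cortisol and serotonin each had an additive effect within a line gave 0 of 32 members at an adjusted p under 0.05 for any effect. Over all genes it gave 0 for cortisol in either line (0% higher and 0% lower), 12 for serotonin in 3T3-L1 cells (0.0728% higher and 0.0364% lower) and 0 for serotonin in RAW 264.7 cells. Before adjustment, 1 and 2 members passed for cortisol and serotonin in 3T3-L1 cells, and 1 and 4 in RAW 264.7 cells, 3.12%, 6.25%, 3.12% and 12.5% of members against 2.8%, 13.3%, 2.59% and 3.37% of all genes. Msmo1 had the lowest value, a serotonin effect of 0.69 in 3T3-L1 cells (95% interval 0.34 to 1.04, limma adjusted p = 0.15). Scd1 had a serotonin effect of -0.67 in RAW 264.7 cells (-1.04 to -0.29, limma adjusted p = 0.97). The effects did not differ between lines at that threshold for any member, with differences (3T3-L1 minus RAW 264.7) of 0.84 for Scd1 (0.31 to 1.36) and 0.72 for Msmo1 (0.23 to 1.22) under serotonin and of -0.77 for Dhcr7 (-1.22 to -0.32) under cortisol, and adjusted p in limma of 0.52, 0.57 and 0.98. Intervals of single effects reached 0.36 to either side at the median before any adjustment, and effects as large as those of Msmo1 and Scd1 did not pass after it.

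Genes around these routes were counted from 3 lists. Of 22 measured genes of the wider pathway (other steps, cofactors and further targets), 6 were higher and 8 lower in 3T3-L1 cells by limma. Of 9 genes of liver X receptor response and cholesterol traffic, 6 were higher and 2 lower, and of 10 genes of fatty acid oxidation, 1 was higher and 3 lower. In percent these are 27.3% and 36.4%, 66.7% and 22.2%, and 10% and 30%, where 38.5% of all genes were higher and 35.9% lower. Acss2, which makes acetyl-CoA from acetate, was 4.11-fold higher in 3T3-L1 cells (limma adjusted p = 9.4e-06), and there it differed from NT by -0.15 on C100, 0.75 on S100 and 0.88 on CS100. Cpt1a, the gate for fatty acids into mitochondria, was below NT in the same line by 0.30, 0.57 and 0.48, and the medians of the oxidation list stood at 0.12, 0.11 and 0.12.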

How the data were processed

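RNA of co-cultured 3T3-L1 and RAW 264.7 cells was hybridised to 8 two-colour Agilent mouse arrays, 1 per line and condition. The authors scanned them with Agilent Feature Extraction, version 10.5.1.1 in the submitters' processing notes. The deposited scanner files hold median signal and background intensities for each dye, and also the log10 ratio that Feature Extraction computed from its own processed signal intensities, with an error. A deposited value table holds the same log10 ratios within 0.005 for all 43020 spots of each array, with a median of 0 in each column. The labels describe the Cy3 reference as an even mix of all the samples, and the study's methods as pooled untreated cells grown alone. It drops out of differences within a line.

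Signals were corrected with normexp (offset 50) and normalised by loess within arrays in limma 3.58.1 (R 4.3.3). Control spots had no weight in the loess and were left out, as were spots marked as outliers. Spots were averaged to 39429 probes, of which 69.8% matched a RefSeq gene (GRCm38.p6). For each gene, probes that exceeded background for both dyes on every array of a comparison were averaged. Treated minus NT was called at 2-fold and at 1.5-fold, without a test. The limma fits used 10995 genes measured on all 8 arrays, Benjamini-Hochberg adjustment at 0.05, and 2 residual degrees of freedom for hormone effects or 3 for the line difference, for which arrays of different treatment served as replicates of a line. Such p-values measure the spread between these arrays. The fits were tested on simulated data.

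Median Cy5 signals were 62 to 79 units (3T3-L1) and 51 to 103 (RAW 264.7), no spot was saturated, and 43.7% to 47.8% of spots were well above background in both channels. The number of arrays limits the precision. All 34 members could be named, with up to 6 genes of each other list that differed most from NT, and Fkbp5, Tsc22d3 and Zbtb16 as a check of the labels. Members and lists were chosen with earlier results of these data known.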

Additional observations from a re-analysis of the deposited data

How the results depend on the processing

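No paired analysis was possible because each condition of a line has 1 array and no replicate numbers pair arrays, other than by treatment, which is the block of the line comparison. The alternatives were no background correction, median centring, the scanner software's ratio, the Cy5 channel alone, no filter on dim probes, the brightest probe, a 1.5-fold call, no treatment block, a fit of 1 line alone, and leaving out each array. Median centring moved all genes of 3T3-L1 cells up by 0.60, 1.08 and 1.00 (C100, S100, CS100), and members at 2-fold then numbered 14, 20 and 23, with medians of 0.86, 1.22 and 1.22, or 0.27, 0.14 and 0.22 above all genes. The same setting gave 14 of 32 members (43.8%) with a higher serotonin effect in that line, against 41.9% of all genes. The software's ratio gave 1 member 2-fold higher on C100 and 2 on CS100. The Cy5 channel alone gave 1 higher on S100 of 3T3-L1 cells, 1 lower on S100 of RAW 264.7 cells, and a median of 0.28 there. The shares of all genes at 2-fold under these alternatives, median centring included, are not given. These 2-fold counts are therefore not a result about the members. At 1.5-fold, 3 were higher on each treated 3T3-L1 array and 1 was lower on C100 and on S100. Between the lines 1 member was higher with median centring and 3 with Cy5 alone, against 8. Of all genes, 17.7% were higher with median centring and 26% with Cy5 alone, against 38.5%. Lower were 11 members with median centring and 16 with Cy5 alone, against 15. Of all genes, 27.4% and 37.5% were lower, against 35.9%. Calls of a higher level thus fell for all genes as well as for members, and the cause was not tested.

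Some line differences that had not passed, and those of Lss and Dhcr7, turned. With median centring they were -0.16 (Hmgcs1), -0.11 (Tm7sf2), -0.17 (Hsd17b7), -0.11 (Srebf2) and -0.034 (Tecr). With Cy5 alone they were -0.50 (Hmgcs1), -0.048 (Lss), -0.13 (Tm7sf2), -0.12 (Hsd17b7), -0.20 (Dhcr7), -0.40 (Srebf2) and -0.31 (Tecr). The software's ratio gave -0.14 (Tm7sf2), -0.11 (Hsd17b7) and -0.028 (Srebf2), no filter 0.0059 (Fdft1) and -0.23 (Srebf2), the brightest probe -0.028 (Hsd17b7), and no background correction 0.0093 (Fads1). With arrays left out in turn the ranges were -0.097 to 0.10 (Tm7sf2), -0.085 to 0.14 (Hsd17b7), -0.27 to 0.25 (Srebf2) and -0.16 to 0.11 (Fads1). With arrays left out in turn the hormone models called 0 members, and over all genes the serotonin effect in 3T3-L1 cells passed for 0 to 255 genes (12 with all arrays), for 336 with that line fitted alone and for 4606 with median centring.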

Other observations

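Probes of 1 gene did not always give 1 value. Of the 34 members, 12 had several probes and 5 had several above background on all 8 arrays. Hsd17b7 differed from NT on C100 of 3T3-L1 cells by -0.66 with its dimmer probe and by -0.02 with its brighter probe. Insig2 differed from NT on CS100 of RAW 264.7 cells by -0.79 with a probe of 287 to 2660 Cy5 units and by -0.13 with a probe of 1733 to 8200 units. Srebf2, by contrast, was above NT on C100 of 3T3-L1 cells by 0.97 and 0.63 with its pair of probes, but its line difference was 0.07 with the probe used and -0.53 with the dimmer one.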
